A study of Homo sapiens with 5 samples.

Results

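LIF, 3 chemokine genes, IL18 and 5 genes of the NF-kB machinery were followed in HCT116 cells, an established human colorectal carcinoma line, in RNA-seq libraries of LT4-treated cells and of controls. The 10 genes were taken by symbol from a table of 60623 genes: the secreted factors LIF, CXCL1, CXCL8, CXCL16 and IL18, and NFKB1, NFKB2, RELA, RELB and NFKBIA. Of these 10, 8 were among the 13833 genes that passed edgeR's expression filter, and CXCL1 and CXCL8 were not. The groups were LT4-treated cells (replicates 1 and 3, n = 2) and controls (replicates 1, 2 and 3, n = 3), all of the HCT116 line, with nothing more said of the controls. The study's title names the compound as 4-acetylantrocamol LT3 where the sample titles say LT4, and neither dose nor time is given in the sources used here. Each LT4 library forms a group of its own in the file headers. Whether the replicates are separate cultures is not stated either; the p-values thus reflect library-to-library spread that could be purely technical. The study asked how LT4 acts on colorectal cancer cells.

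NF-kB is a family of paired transcription factors held in the cytoplasm by IkB proteins. In the canonical branch, IKK kinases mark IkB-alpha (the product of NFKBIA) for destruction and free the RELA and p50 (NFKB1) pair; in the non-canonical branch, the kinase NIK (MAP3K14) and IKK-alpha (CHUK) lead to the processing of NFKB2 and free the RELB and p52 pair. CXCL1 and CXCL8 attract neutrophils and are classical NF-kB targets, and NFKBIA is itself a target that feeds back on the pathway. LIF is a cytokine of the IL-6 family that signals through LIFR and gp130 (IL6ST) to JAK kinases and STAT3. CXCL16 is a membrane-bound chemokine released by proteases, and IL-18 is made by epithelial cells as a precursor that caspase-1 cuts.

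The promoters of 3 of these genes are shown because the neutrophil chemokine genes were nearly silent while NFKBIA was abundant. They are RefSeq sequences (GRCh38.p14) of the 250 bases before the annotated start, given 5′ to 3′ on the strand of the gene. The capitals mark matches to the kB consensus or to the AP-1 motif TGANTCA, searched on both strands. The RefSeq start of CXCL8 lies downstream of the GENCODE start given with its values. The windows are chr4:73869143-73869392 (plus strand) for CXCL1, chr4:73740319-73740568 (plus) for CXCL8 and chr14:35404750-35404999 (minus) for NFKBIA.
CXCL1: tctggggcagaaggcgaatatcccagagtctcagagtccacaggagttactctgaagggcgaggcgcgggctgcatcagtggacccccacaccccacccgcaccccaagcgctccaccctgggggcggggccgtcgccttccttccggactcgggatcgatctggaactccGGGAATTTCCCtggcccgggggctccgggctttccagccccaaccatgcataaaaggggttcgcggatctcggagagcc
CXCL8: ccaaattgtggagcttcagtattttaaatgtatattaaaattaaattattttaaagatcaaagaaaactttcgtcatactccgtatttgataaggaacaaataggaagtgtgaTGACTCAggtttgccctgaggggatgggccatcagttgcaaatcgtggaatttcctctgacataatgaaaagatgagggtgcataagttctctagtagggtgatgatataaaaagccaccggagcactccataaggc
NFKBIA: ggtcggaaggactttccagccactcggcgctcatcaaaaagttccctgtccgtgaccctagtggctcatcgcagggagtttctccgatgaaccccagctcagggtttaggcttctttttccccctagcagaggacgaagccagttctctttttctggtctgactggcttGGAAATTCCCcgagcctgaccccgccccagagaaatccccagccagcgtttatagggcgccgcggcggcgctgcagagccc

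In CXCL1, 2 overlapping kB matches covered the bases from 79 to 69 before the start. The NFKBIA window held 1 kB match, from 81 to 72 bases before the start. The CXCL8 window held an AP-1 match from 137 to 131 bases before the start and no run of letters equal to the kB consensus. It does hold tggaatttcc, which differs only in its first letter from gggaatttcc, a kB match in CXCL1. Near matches were not counted, so the search cannot show that a kB site is absent. Of the 10 genes, 6 had a window in the table, with 10 windows among them because NFKB1, NFKB2 and RELA have several starts. A kB match stood in 5 of these 10 windows, against 9.96% of the 35116 windows of all genes. By gene, 4 of the 6 had a match (CXCL1, NFKBIA, NFKB1 and NFKB2). No share by gene was computed for all genes, and a gene with several windows has more room for a match. The AP-1 motif stood in 1 of the 10 windows, against 6.57% of all windows. A match describes the letters only.

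Library facts that touch these values were few. LT4 replicate 1 held 9840467 counts and LT4 replicate 3 held 2281912, against 11653484 to 12296916 in the controls. In LT4 replicate 3 a single count was therefore worth 0.434 CPM, against 0.0811 to 0.0866 CPM in the controls; CPM is the count scaled to the library total and edgeR's TMM factor. Mitochondrial genes took 5.73% and 9.92% of the counts in LT4 replicates 1 and 3, against 5.83% to 6.64% in the controls. Of all pairs of libraries, the 2 LT4 libraries were the least alike. The chi-square per degree of freedom between their counts was 33.1. It was 13.7 to 27.2 between an LT4 library and a control, and 5.94 to 9.36 between controls. The epithelial markers EPCAM, KRT8, KRT18, KRT19 and CDH1 summed to 13500 and 12500 CPM in LT4 replicates 1 and 3, against 13200 to 15400 CPM in the controls. Of 8 leukocyte markers, PTPRC and CD3E had 0 counts in every library, and the list summed to 6.32 and 3.91 CPM in LT4 replicates 1 and 3 and to 6.25 to 7.1 CPM in the controls, most of it from NCAM1. Of 5 fibroblast markers DCN had 0 counts throughout, and the list summed to 14.4 and 9.98 CPM with LT4 and 16.6 to 17.7 CPM in controls, most of it from COL1A1. With all libraries thinned to the smallest total, the log2 fold changes were 0.75 for LIF, -0.36 for IL18 and -0.14 for NFKBIA. Among protein-coding genes without mitochondrial and histone genes they were 0.74, -0.42 and -0.25. Beyond these refits, whether the differences in depth, mitochondrial share or fibroblast markers have a part in the results was not tested.

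Levels between genes were compared in TPM, which the authors scaled for gene length. The 10 genes spanned from abundant to nearly absent transcripts. CXCL16 was the most abundant in every library, at 106 ± 24.7 TPM with LT4 (SD, n = 2) and 103 ± 5.3 TPM in controls (SD, n = 3), above 94.1% of protein-coding genes in the controls. NFKB2, NFKBIA, RELA and IL18 followed at control means of 84.3, 73.4, 68 and 62.1 TPM. The control ranges of NFKB2 and NFKBIA, of NFKBIA and RELA, and of RELA and IL18 overlapped. Within each control, though, NFKB2 stood above NFKBIA and NFKBIA above RELA. IL18 was last of these 4 genes in controls 1 and 2 and first in control 3, so its place is not resolved. The LT4 libraries differed, with RELA above NFKBIA in LT4 replicate 1 and NFKBIA above NFKB2 in LT4 replicate 3. LIF came next at 41.9 ± 12.1 TPM with LT4 and 24.8 ± 1.92 TPM in controls. NFKB1 (11.6 ± 4.02 TPM with LT4, 11.5 ± 1.51 TPM in controls) and RELB (8.78 ± 1.91 TPM with LT4, 8.87 ± 0.836 TPM in controls) were lower still, and their ranges did not overlap in the controls. CXCL1 and CXCL8 closed the order in all 5 libraries, at control means of 0.65 and 0.197 TPM with overlapping ranges.

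**Figure D1:**
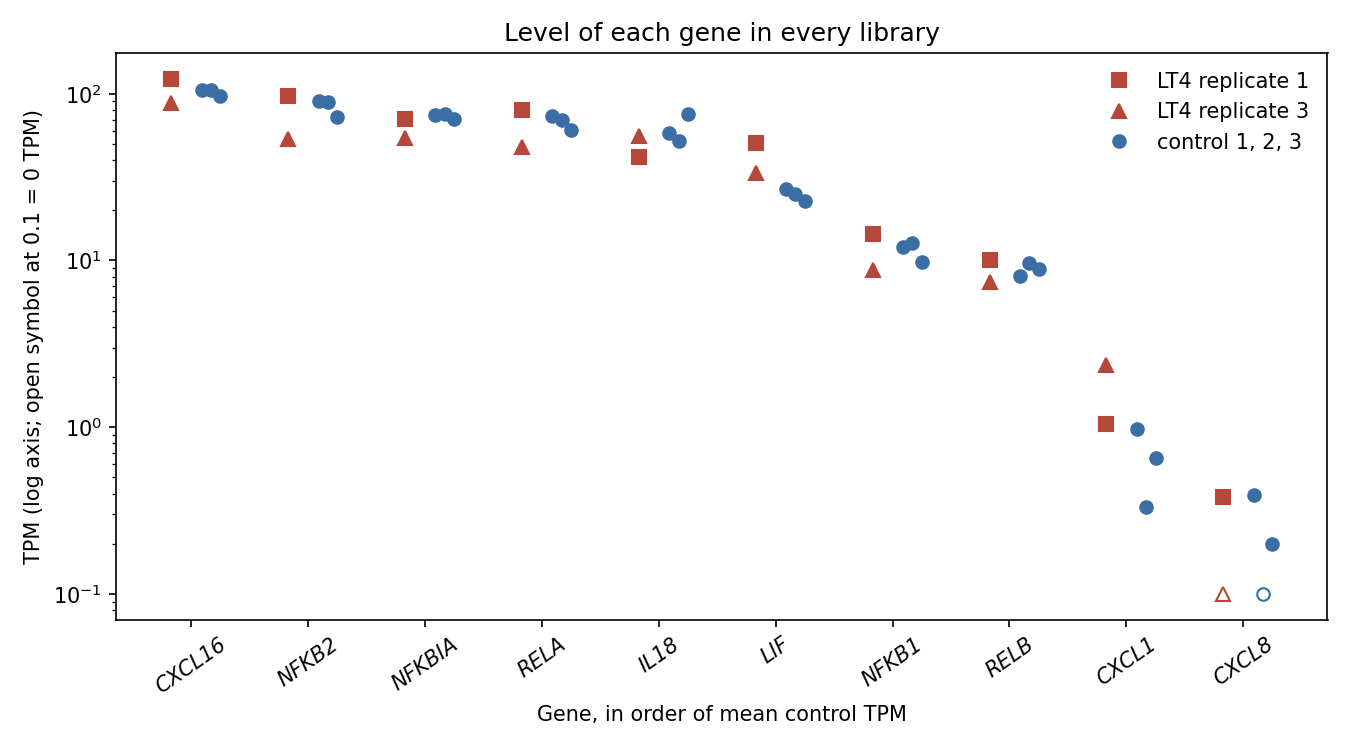
TPM of the 10 genes (log axis) in each library, with LT4 replicates 1 and 3 as a red square and triangle left of the 3 controls as blue circles; open symbols at the bottom are libraries with 0 TPM. CXCL16 to LIF lie between 22.8 and 123 TPM, NFKB1 and RELB near 10, and CXCL1 and CXCL8 at 2.35 TPM or less.

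LIF had the largest difference between the groups among the 8 tested genes. LIF (ENSG00000128342, GRCh38 chromosome 22, 30240447 to 30246851, minus strand, protein-coding) had 67.6 and 52.5 CPM in LT4 replicates 1 and 3, against 38, 37.2 and 34.4 CPM in controls 1, 2 and 3. Both LT4 libraries lay above every control, and LT4 replicate 1 was the higher of the 2. The counts behind these values were 684 and 121 in the LT4 libraries, against 469, 430 and 399 in the controls. The level was 60.1 ± 10.6 CPM with LT4 (SD, n = 2) and 36.6 ± 1.9 CPM in controls (SD, n = 3). The log2 fold change was 0.74 (SE 0.15, 95% interval 0.42 to 1.06), which is 1.67-fold. The edgeR adjusted p was 0.0813 over all genes tested, so LIF did not pass the threshold of 0.05. By p-value LIF ranked 43 among the 13833 genes tested, of which 19 (0.137%) passed. In bulk RNA a higher level per cell and more cells that express the gene cannot be told apart.

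The call on LIF turned with the setting, while its sign stayed positive in all 15 alternatives, between 0.52 and 0.89. All alternatives reuse the same libraries. As both LT4 libraries lay above every control, leaving out a library could hardly turn the sign. The shared sign is thus not separate support. The alternative with an adjusted p under 0.01 reuses the main fit, so its sign was fixed. LIF passed in 4 of the alternatives: by DESeq2 (log2 fold change 0.74, adjusted p = 0.019), with no count filter (0.70, edgeR adjusted p = 0.00698), with the replicate number as a block (0.73, edgeR adjusted p = 0.000909) and without LT4 replicate 3. With LT4 replicate 1 alone, that is without LT4 replicate 3, the log2 fold change was 0.89 (edgeR adjusted p = 0.000274); with LT4 replicate 3 alone it was 0.52 and did not pass (edgeR adjusted p = 0.112). In the authors' deposited table, LIF had a log2 fold change of 0.90 for LT4 replicate 1 (adjusted p = 6.03e-05) and of 0.50 for LT4 replicate 3 (adjusted p = 0.172). Without any 1 of the controls the edgeR adjusted p was 0.276 to 0.371. In the replicate block fit, control 2 has no LT4 library of its number. The LT4 effect there rests on replicate numbers 1 and 3, with few residual degrees of freedom. On the opposite strand 2 antisense genes share 92 and 175 of the 3969 exonic bases of LIF, and although the kit keeps strand, how the counting treated it is unknown here.

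Among the other secreted factors, IL18 had unlike values in the LT4 libraries and CXCL16 had a mean close to that of the controls. IL18 (ENSG00000150782, chromosome 11, 112143251 to 112164117, minus strand) had 37.4 and 59 CPM in LT4 replicates 1 and 3, against 56, 52.1 and 77 CPM in controls 1, 2 and 3. LT4 replicate 1 lay below every control, and LT4 replicate 3 lay among them. The log2 fold change was -0.41 (SE 0.22, 95% interval -0.89 to 0.07, edgeR adjusted p = 0.432). Without LT4 replicate 3 it was -0.72 and passed (edgeR adjusted p = 0.0289), and without LT4 replicate 1 it was -0.06 (edgeR adjusted p = 0.907). The authors' deposited table gave -0.70 (adjusted p = 0.0102) for LT4 replicate 1 and -0.08 (adjusted p = 0.929) for LT4 replicate 3. Control 3 was the highest library for IL18, and without it the log2 fold change was -0.21 (edgeR adjusted p = 0.763). A difference between the LT4 libraries themselves cannot be tested with 1 library of each.

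CXCL16 (ENSG00000161921, chromosome 17, 4733526 to 4739922, minus strand) had 119 and 101 CPM in LT4 replicates 1 and 3, against 108, 114 and 105 CPM in controls 1, 2 and 3. The LT4 libraries lay on either side of the control range. Its log2 fold change was 0.02 (SE 0.14, 95% interval -0.29 to 0.33, edgeR adjusted p = 0.968), so the interval holds changes of between 0.82-fold and 1.25-fold. Of its exonic bases, 85 (3.04%) overlap MED11 on the other strand. The protease genes ADAM10 and ADAM17, whose products release CXCL16 from the cell surface, did not pass, nor had either an unadjusted p under 0.05. ADAM10 had 27.9 and 30.4 CPM with LT4, against 26.8, 18.4 and 24.9 CPM in controls (log2 fold change 0.30, edgeR adjusted p = 0.506), and ADAM17 had a log2 fold change of 0.14 (edgeR adjusted p = 0.792).

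CXCL1 and CXCL8 were at the edge of detection in every library. CXCL1 (ENSG00000163739, chromosome 4, 73869393 to 73871242, plus strand) had 5 and 3 counts in LT4 replicates 1 and 3, against 6, 2 and 4 counts in controls 1, 2 and 3. On the CPM scale this was 0.494 and 1.3 with LT4 and 0.487, 0.173 and 0.345 in the controls. Both LT4 values were above the controls, but the value of LT4 replicate 3 equals the 3 counts that a count of 0 would allow in that library. Over the summed counts (8 with LT4, 12 in controls) the ratio of LT4 to control was 1.9, with an exact 95% interval of 0.675 to 5.06 that covers counting error only. CXCL8, which encodes interleukin-8 (ENSG00000169429, chromosome 4, 73740506 to 73743716, plus strand), had 3 and 0 counts in LT4 replicates 1 and 3, against 4, 0 and 2 counts in controls 1, 2 and 3. At a count of 0, CXCL8 could have reached 1.3 CPM in LT4 replicate 3 and 0.26 CPM in control 2. Its ratio over the summed counts (3 with LT4, 6 in controls) was 1.43, with an exact 95% interval of 0.231 to 6.68. Within these intervals a difference in either chemokine could not be resolved at this depth. Neither gene had more than 6 counts in any library.

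The other chemokine genes gave the same picture of low counts. None of 13 further chemokine genes passed the expression filter; CXCL5, CXCL6, CXCL11 and CXCL14 had 0 counts in every library, and the highest single count was 8 for CCL5 in control 3. CXCL2 and CXCL3, close relatives of CXCL1, had 2 and 0, and 5 and 0 counts in LT4 replicates 1 and 3, against 2 to 3 and 0 to 4 counts in the controls. Reads of these near-identical genes can be split between copies by the counting. None of 8 chemokine receptor genes passed the filter either. CXCR2, which binds CXCL1 and CXCL8, had 9 and 1 counts in LT4 replicates 1 and 3, against 5, 7 and 3 in controls 1, 2 and 3. CXCR6, the receptor of CXCL16, had 0 counts in all libraries.

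None of the 5 NF-kB genes passed the test, and in CPM the groups stood apart for NFKBIA alone. NFKBIA (ENSG00000100906, chromosome 14, 35401511 to 35404749, minus strand), the inhibitor and feedback target, had 58.1 and 52.5 CPM in LT4 replicates 1 and 3, against 65.1, 68.8 and 65.1 CPM in controls 1, 2 and 3. On this scale both LT4 libraries lay below every control. The level was 55.3 ± 3.94 CPM with LT4 (SD, n = 2) and 66.3 ± 2.13 CPM in controls (SD, n = 3). The log2 fold change was -0.25 (SE 0.14, 95% interval -0.55 to 0.05, edgeR adjusted p = 0.448). On the TPM scale the groups overlapped, with 70.7 and 54.4 TPM in LT4 replicates 1 and 3, against 74.5, 75.3 and 70.4 TPM in the controls. Of all genes tested, 16.6% had both LT4 libraries below every control and 17.3% had both above, 33.9% together. Among the 8 tested genes 1 lay below (NFKBIA) and 1 above (LIF), a share near that background.

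The subunits of the canonical pair, RELA and NFKB1, had the same order of the LT4 libraries relative to the controls. RELA (ENSG00000173039, chromosome 11, 65653596 to 65663094, minus strand), which carries the transactivation domain, had 152 and 106 CPM in LT4 replicates 1 and 3, against 149, 146 and 129 CPM in controls 1, 2 and 3. NFKB1 (ENSG00000109320, chromosome 4, 102501329 to 102617302, plus strand), the p105 precursor of p50, had 31.7 and 22.6 CPM with LT4, against 28.2, 31.1 and 24.3 CPM in controls. For both genes LT4 replicate 1 lay above every control and LT4 replicate 3 below every control. The margin in LT4 replicate 1 was small, at 152 against 149 CPM for RELA and 31.7 against 31.1 CPM for NFKB1. CXCL16 had the same order, and the share of all genes with it was not computed. The log2 fold changes were -0.12 for RELA (SE 0.16, 95% interval -0.47 to 0.24, edgeR adjusted p = 0.801) and 0.01 for NFKB1 (SE 0.19, 95% interval -0.39 to 0.41, edgeR adjusted p = 0.985). The TPM ratio of RELA to NFKB1 was 5.57 and 5.47 in LT4 replicates 1 and 3, against 6.13, 5.45 and 6.18 in controls 1, 2 and 3.

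The non-canonical pair gave values of the same kind. NFKB2 (ENSG00000077150, chromosome 10, 102394110 to 102402529, plus strand), the p100 precursor of p52, had 158 and 103 CPM in LT4 replicates 1 and 3, against 158, 162 and 134 CPM in controls 1, 2 and 3. LT4 replicate 3 lay below every control, and LT4 replicate 1 within their range. Its log2 fold change was -0.19 (SE 0.18, 95% interval -0.58 to 0.19, edgeR adjusted p = 0.662), with 0.07 without LT4 replicate 3 and -0.55 without LT4 replicate 1 (edgeR adjusted p = 0.052). RELB (ENSG00000104856, chromosome 19, 45001430 to 45038198, plus strand), the partner of p52, had 10.6 and 9.12 CPM with LT4, against 8.92, 11.3 and 10.4 CPM in controls. The groups overlapped, and the log2 fold change was -0.02 (SE 0.22, 95% interval -0.49 to 0.46, edgeR adjusted p = 0.986). In LT4 replicate 3 its value rested on 21 counts, with a counting error of 21.8%. The TPM ratio of NFKB2 to RELA was 1.21 and 1.12 in LT4 replicates 1 and 3, against 1.23, 1.29 and 1.2 in controls 1, 2 and 3.

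**Figure D2:**
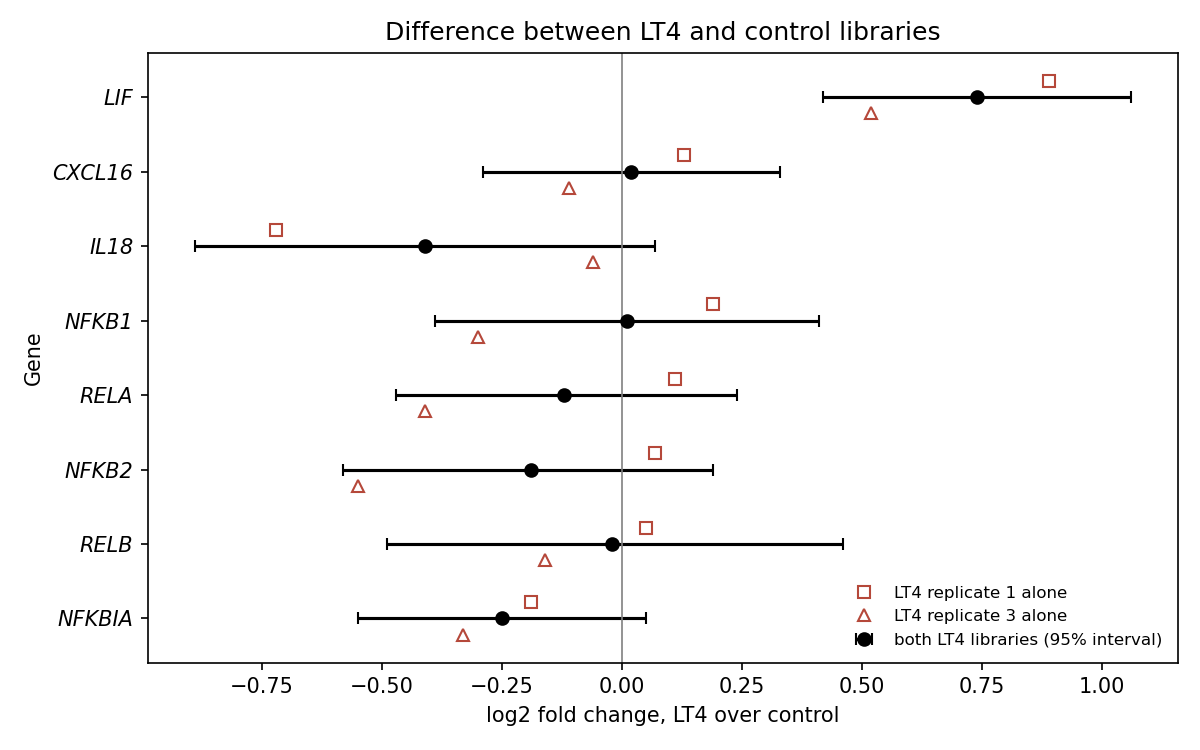
Log2 fold change of LT4 over control for the 8 tested genes: black points with 95% intervals use both LT4 libraries, and open red squares and triangles use LT4 replicate 1 or LT4 replicate 3 alone. LIF is the only gene of the 8 whose interval (0.42 to 1.06) lies off 0; for RELA, NFKB1, NFKB2, RELB and CXCL16 the single-library values lie on opposite sides of 0.

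Over the 8 tested genes none was called by edgeR (background 0.137% of all genes tested, 0.123% higher and 0.0145% lower), 1 had an unadjusted p under 0.05 (LIF; background 13.9%), and DESeq2 called 1 (LIF; background 1.06%). LIF was also the 1 gene called with no count filter (background 1.27%) and with the replicate block (background 3.09%). With LT4 replicate 1 alone 2 were called (LIF and IL18; background 3.7%), and with LT4 replicate 3 alone none was (background 4.12%). In both single-library fits the lone LT4 library is assumed to vary like the controls.

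The remaining NF-kB subunits, IkB proteins and IKK kinases counted 11 genes, and none passed. Unadjusted p-values under 0.05 were found for 1 higher and 2 lower genes (background 8.58% and 5.28% of all genes tested). The median log2 fold change was -0.06, against 0 over all genes tested. CHUK, which encodes IKK-alpha, had 17.6 and 24.7 CPM in LT4 replicates 1 and 3, against 11.8, 8.75 and 14.6 CPM in controls 1, 2 and 3, and the groups did not overlap (log2 fold change 0.79, SE 0.24, edgeR adjusted p = 0.177). Without LT4 replicate 1 it passed, at 1.08 (edgeR adjusted p = 0.0252), but not without LT4 replicate 3, at 0.59 (edgeR adjusted p = 0.151), nor by DESeq2 (adjusted p = 0.149). Both LT4 libraries were below every control for 2 of the 11 genes (NFKBIB and NFKBIE) and above for 2 (CHUK and IKBKB), against 16.6% and 17.3% of all genes tested. The other IkB-family genes on the list, NFKBIZ, NFKBID and BCL3, overlapped with the controls; IKBKB and these 3 are named after their values were seen. NFKBIB had 63 and 60.3 CPM with LT4, against 76.4, 84.1 and 87.3 CPM in controls (log2 fold change -0.42, SE 0.14, edgeR adjusted p = 0.23). NFKBIE had 20 and 26.9 CPM with LT4, against 29, 30.2 and 31.9 CPM in controls (log2 fold change -0.43, SE 0.18, edgeR adjusted p = 0.311).

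Among 22 receptors, adaptors and kinases upstream of NF-kB, 20 were tested and none passed. The median log2 fold change was -0.02, and unadjusted p-values under 0.05 were found for 2 higher genes and 1 lower gene (background 8.58% and 5.28%). BIRC2, a ubiquitin ligase that holds the non-canonical branch in check, had 9.98 and 13.5 CPM in LT4 replicates 1 and 3, against 6.98, 4.85 and 7.85 CPM in controls (log2 fold change 0.77, SE 0.27, edgeR adjusted p = 0.23). MAP3K14, the kinase NIK, had 18.5 and 18.2 CPM with LT4, against 13.8, 13.9 and 12.2 CPM in controls (log2 fold change 0.47, SE 0.18, edgeR adjusted p = 0.28). TRADD, an adaptor of the TNF receptor, had 18.1 and 18.2 CPM with LT4, against 22, 25.7 and 28.2 CPM in controls (log2 fold change -0.48, SE 0.18, edgeR adjusted p = 0.27). The groups did not overlap for BIRC2, MAP3K14 and TRADD; over the 20 genes tested LT4 was above every control for 7 and below for 3, against 33.9% of all genes tested in either direction.

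Of 25 NF-kB-responsive genes, 24 had a row under their symbol and 13 were tested, and none passed. Their median log2 fold change was 0.06, and 1 gene had an unadjusted p under 0.05 (background 13.9% in either direction). That gene was IER3, an early-response gene, with 445 and 424 CPM in LT4 replicates 1 and 3, against 298, 358 and 353 CPM in controls (log2 fold change 0.37, SE 0.13, edgeR adjusted p = 0.25). TRAF1 (1.14, SE 0.58, edgeR adjusted p = 0.403) and SDC4 (0.27, SE 0.14, edgeR adjusted p = 0.411) came next; TRAF1 rested on 14 and 8 counts in the LT4 libraries. The inflammatory outputs of the pathway that could not be tested included TNF, with 1 count in LT4 replicate 3 and 0 elsewhere, and IL6 and IL1B, with 0 counts in every library.

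Around LIF, 13 of 16 genes of its receptor and JAK-STAT signalling were tested and none passed, with a median log2 fold change of 0.03. Unadjusted p-values under 0.05 were found for 3 higher genes and 1 lower gene (background 8.58% and 5.28% of all genes tested). PTPN11, the phosphatase SHP2 that couples gp130 to the RAS-ERK pathway, had a difference close to that of LIF, with 107 and 112 CPM in LT4 replicates 1 and 3, against 75.1, 62.1 and 63.6 CPM in controls 1, 2 and 3. Both LT4 libraries lay above every control (log2 fold change 0.71, SE 0.15, edgeR adjusted p = 0.0832). It passed with either LT4 library alone, at 0.68 for LT4 replicate 1 (edgeR adjusted p = 0.00425) and 0.74 for LT4 replicate 3 (edgeR adjusted p = 0.00554), and by DESeq2 (0.71, adjusted p = 0.00884). It did not pass without control 1, 2 or 3, with edgeR adjusted p-values of 0.247, 0.376 and 0.317. IL6ST, which encodes gp130, had 5.24 and 4.34 CPM with LT4, against 4.14, 1.65 and 1.64 CPM in controls (log2 fold change 0.99, SE 0.42, edgeR adjusted p = 0.324). LIFR was scarce, at 2.07 and 2.17 CPM with LT4, against 1.95, 0.78 and 1.73 CPM in controls. The feedback gene SOCS3, induced by STAT3, had a log2 fold change of -0.02 (SE 0.19, edgeR adjusted p = 0.98), and STAT3 itself of 0.01 (edgeR adjusted p = 0.988); LIFR, SOCS3 and STAT3 are named after their values were seen.

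IL18 was abundant while several genes of IL-18 handling had no reads. Of 13 genes of IL-18 handling and the inflammasome, 6 had 0 counts in every library: CASP1, the protease that cuts the IL-18 precursor, PYCARD and NLRP3 of the inflammasome, the receptor gene IL18RAP, and the related cytokine genes IL1B and IL33. These 6 are named after their values were seen, and their levels could still reach 0.296 and 1.3 CPM in LT4 replicates 1 and 3 and 0.26 CPM in the controls. Of the 13 genes 4 were tested, and none passed or had an unadjusted p under 0.05 (background 13.9% in either direction). IL18BP, which encodes a secreted decoy of IL-18, had 3.46 and 6.08 CPM with LT4, against 2.19, 3.38 and 1.64 CPM in controls (log2 fold change 0.84, SE 0.40, edgeR adjusted p = 0.38). GSDMD, the pore protein of pyroptosis, had 90 and 99.4 CPM with LT4, against 105, 108 and 121 CPM in controls (log2 fold change -0.24, edgeR adjusted p = 0.481), and CASP4 had -0.35 (edgeR adjusted p = 0.487).

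**Figure D3:**
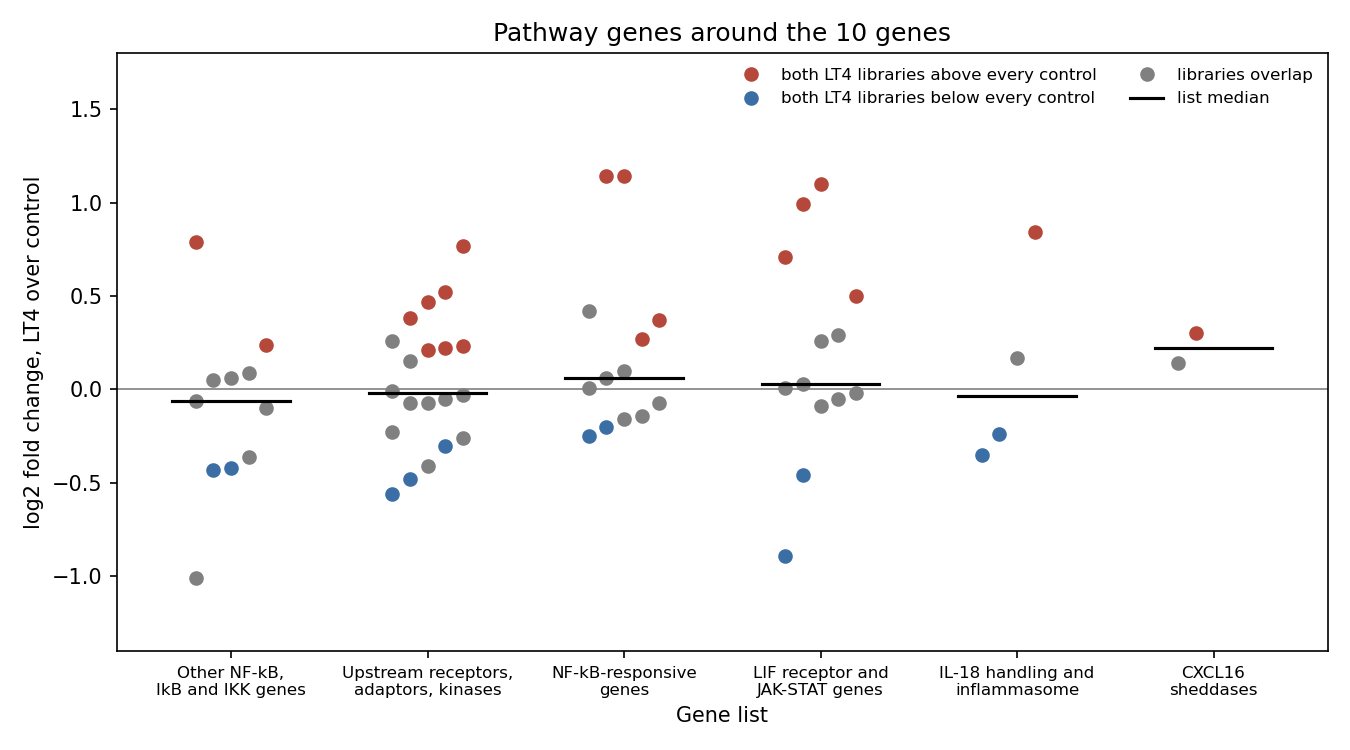
Log2 fold change of LT4 over control for each tested gene of the 6 pathway lists with tested genes; red points have both LT4 libraries above every control, blue points both below, grey points overlap, and black lines are list medians. The medians lie between -0.06 and 0.22, and no point passed the edgeR threshold.

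In all, the 8 pathway lists held 102 genes, of which 63 were tested and none was called by edgeR (unadjusted p under 0.05 for 7 higher and 4 lower genes, background 8.58% and 5.28%), while DESeq2 called PTPN11. The groups were apart, with LT4 higher, for 19 of the 63 and with LT4 lower for 11, against 17.3% and 16.6% of all genes tested. No test was made of whether these shares differ from the background.

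The genes most like LIF across the 5 libraries were found by the root mean square difference between log2 CPM profiles, each centred on its own mean, among 9903 other protein-coding genes. The nearest were SECISBP2L (0.0294), USP31 (0.0445), CYP1A1 (0.0447) and SLC7A1 (0.0484), against a median of 0.408 for all genes compared. SLC7A1, a transporter of cationic amino acids, had 219 and 171 CPM in LT4 replicates 1 and 3, against 119, 113 and 104 CPM in controls 1, 2 and 3. CYP1A1, a monooxygenase induced through the aryl hydrocarbon receptor, had 21.3 and 16.1 CPM with LT4, against 10.9, 11.6 and 10.5 CPM in controls. None of these genes passed, with edgeR adjusted p-values of 0.183 for SECISBP2L, 0.135 for USP31, 0.109 for CYP1A1 and 0.0554 for SLC7A1. With 5 libraries this likeness is a description of the values.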

How the data were processed

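Per the labels' protocols, TRIzol was used for the RNA and Illumina's TruSeq Stranded mRNA kit for the libraries. Tools named in the submitters' processing notes are HISAT2 2.1.0, fastp 0.20.0, Subread 2.0.1, SAMtools 1.9 and featureCounts, with the build GRCh38; their order, the annotation and the strand setting are unknown here. The deposited table holds raw read counts per Ensembl gene, per the file headers. The authors also deposited TPM values, per the file headers, each library summing to 1000000. The authors also deposited, for each LT4 library against the controls, a log2 fold change with its p-value and adjusted p-value, by an unnamed test. Left out were 2 per-sample and 3 comparison columns with no matching sample.

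Sample titles gave the groups, and GENCODE 29 the positions. LT4 was tested against control with edgeR's quasi-likelihood F test on all 5 libraries (group as the only term, expression filter, TMM scaling, robust dispersion, Benjamini-Hochberg adjustment over 13833 genes, threshold 0.05; biological coefficient of variation 14.6%). The SE was taken as the size of the log2 fold change divided by the root of F, and intervals use the test's degrees of freedom. Limits for a count of 0 are 3 counts; limits and count intervals cover counting error only. R 4.3.3, edgeR 4.0.16, limma 3.58.1, DESeq2 1.42.0, Python 3.11.15 and pandas 2.3.3 were used. The test was also run on simulated counts with the same spread for all libraries. In the data the 2 LT4 libraries were the least alike, so that run does not show how the test does here.

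The 10 genes, the pathway and marker lists and the naming rule were chosen with earlier results of these data known. The rule named the 10 genes, in each pathway list the genes past the threshold and otherwise the 3 with the smallest p, and the 4 genes most like LIF; likeness to CXCL8, also in the rule, was not computed because of its counts of 0 to 4. Likeness used log2(CPM + 0.5). Of the genes the rule named, 1 is not reported here. The list symbol without a row was SOD2. Alternatives were RLE scaling, unscaled library totals, each library left out, no count filter, a minimum of 50 counts in 2 or more libraries, a replicate block, DESeq2, limma voom, thinning to the smallest total, an adjusted p under 0.01, and, added after the data were seen, protein-coding genes without mitochondrial and histone genes.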

Additional observations from a re-analysis of the deposited data

How the results depend on the processing

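Scaling moved the median of all genes by at most 0.05 (library totals), and without the count filter it was -0.08. The 19 genes called of all tested became 311 with no count filter (of 24553 tested), 115 by DESeq2, 1 at an adjusted p under 0.01, and 1 to 598 when a library was left out (1 without each control, 598 without LT4 replicate 1, 526 without LT4 replicate 3). Of the 10 genes, 1 (LIF) was called with no count filter and by DESeq2, and 0 to 2 when a library was left out (LIF and IL18 without LT4 replicate 3). Pathway genes called were 2 with no count filter, 1 by DESeq2 and 0 to 3 with a library left out (CHUK, MYD88 and PTPN11 without LT4 replicate 1; IRAK1 and PTPN11 without LT4 replicate 3). With a library left out, 2 to 7 of the 10 genes did not overlap between groups: 7 of 9 tested without LT4 replicate 1 (74.9% of all genes tested), 6 of 8 without LT4 replicate 3 (66.2%) and 2 of 8 without any 1 control (40.2% to 44%).

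The labels do not say what a replicate number shares, and only numbers 1 and 3 occur in both groups. Across genes, deviations of same-numbered libraries correlated at 0.219 for number 1 and 0.252 for number 3. LT4 replicate 1 with control 3 gave -0.252, and LT4 replicate 3 with control 1 gave -0.219. These values mirror the others because the deviations of LT4 replicates 1 and 3 are equal with opposite sign. The correlations are thus not separate evidence, and no conclusion on pairing is drawn from them. With the replicate block 427 genes were called, among them 1 of the 10 genes (LIF, 0.73, edgeR adjusted p = 0.000909) and 3 pathway genes (CHUK, IER3 and PTPN11), and RELB had 0.09.

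LIF, IL18 and NFKBIA kept their sign in all 15 alternatives. The alternative with an adjusted p under 0.01 reuses the main fit, so no sign could change there. For LIF and NFKBIA the groups did not overlap in CPM, so leaving out a library could hardly turn the sign either. The kept signs are thus not separate support. Signs near 0 turned for RELB with library totals (0.03), limma voom (0.01) and thinning (0.11), and for CXCL16 with no count filter (-0.02) and thinning (-0.01), and for NFKB1 with no count filter (-0.02). With a library left out the ranges were -0.16 to 0.06 for RELB, -0.11 to 0.13 for CXCL16, -0.30 to 0.19 for NFKB1, -0.55 to 0.07 for NFKB2 and -0.41 to 0.11 for RELA. The cause was not tested. Counts of overlap have no value by DESeq2, limma voom, the block or another threshold. Depth limits CXCL1 and CXCL8 most.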
